A study of Mus musculus with 24 samples.

Results

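The liver of mice that lack the clock gene Arntl (also called Bmal1) in hepatocytes was compared at zeitgeber time 18 (ZT18, hours after lights on, the middle of the night) with the liver of mice that keep it. The comparison holds 4 of the 24 liver RNA libraries of the study, 2 per genotype, taken as the libraries whose label gives ZT18; the other 20 come from ZT2, 6, 10, 14 and 22. HepKO mice (Alb::Cre +/0, Bmal1 fl/fl) carried a Cre recombinase driven by the albumin promoter and so active in hepatocytes, together with floxed Bmal1 alleles, whereas HepWT mice (Alb::Cre 0/0, Bmal1 fl/fl) carried the same floxed alleles and no Cre. A difference between the genotypes therefore covers both the loss of Arntl and the presence of Cre, which cannot be told apart in this design. All mice were C57BL/6, 8 to 12 weeks old, and on night restricted feeding in both genotypes. Liver cells outside the reach of that promoter keep Arntl in both genotypes. Whether the libraries stem from separate animals is not given by the labels; the p-values cover only how much these libraries vary, which may be technical variation.

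The clock of a liver cell is a transcriptional feedback loop. ARNTL pairs with CLOCK or NPAS2, binds E-box sequences and drives the genes of its own repressors, the period (Per) and cryptochrome (Cry) proteins, and of the nuclear receptors NR1D1 and NR1D2 (REV-ERB alpha and beta). The REV-ERB receptors repress, and the ROR receptors activate, genes with a ROR element, among them Arntl, Npas2 and Cry1. In liver the loop runs alongside daily rhythms of feeding, lipid synthesis and drug metabolism.

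Total counts at ZT18 were 24000331 and 15356796 in HepKO and 26844464 and 29069666 in HepWT. HepKO replicate 2 was one of 5 HepKO libraries with low totals, 12997689 to 16910415, against 23583035 to 30677807 in the other 19. A chi-square of the counts of both replicates at ZT18, divided by its degrees of freedom, was 14.9 in HepKO and 25.7 in HepWT. Counting error alone gives about 1, so the replicates varied by more than counting error. The value pools genes of all levels, and whether depth limits precision for genes of few counts was not tested. HepWT replicate 2 held more collagen and cell cycle RNA than replicate 1 at ZT18, as given beside those genes below. The table lists 35304 genes, and 17275 of them passed the filter on low counts and were tested. Levels are given as CPM, that is counts scaled to a common library size after TMM, and are compared within a gene only; differences are fitted log2 values, HepKO minus HepWT, with their standard error (SE). A gene was called where its adjusted p was below 0.05 by edgeR's quasi-likelihood test, with the spread estimated from all 24 libraries in 12 groups of 2.

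The targeted gene was examined first. At ZT18 Arntl (ENSMUSG00000055116, chromosome 7, 113207465 to 113314126 of GRCm38) stood at 13.2 and 15.4 CPM in HepKO and at 28.8 and 26.5 CPM in HepWT, so the genotypes did not overlap and HepKO held the lower level. Over all tested genes the libraries of the genotypes did not overlap at ZT18 in 48.5%. The log2 difference was -0.96 ± 0.17 (SE, adjusted p = 0.00295), which is 1.94-fold, and the call was lost without HepKO ZT18 replicate 1 (log2 -0.84, adjusted p = 0.0795). Counts cover the whole gene, so exons outside the floxed part and the other cells of the liver may add to what is left. The part of either was not tested. HepKO libraries of the other 5 times lay between 10.3 and 17.7 CPM. HepWT libraries ran from 1.27 CPM at ZT10 to 46.0 CPM at ZT2, and ZT18 sat on the rise towards the morning peak. The genotype difference of Arntl had the opposite sign earlier, at 3.05 at ZT10 and 1.52 at ZT14, both called, and the same sign at ZT2 (-1.51), ZT6 (-0.52, not called) and ZT22 (-1.31).

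At mid night the HepWT level of Cry1 lay close to that of HepKO, unlike at ZT6. Cry1 (ENSMUSG00000020038), a repressor of ARNTL and CLOCK, stood at 57.2 and 55.1 CPM in HepKO and at 45.2 and 42.1 CPM in HepWT. The libraries did not overlap, as in 48.5% of all tested genes, but the log2 difference of 0.37 ± 0.13 was not called (adjusted p = 0.172). In HepKO it lay between 54.7 and 70.9 CPM at every other time. In HepWT it stood at 6.08 and 5.45 CPM at ZT6, where the log2 difference was 3.47, and at 55.1 and 47.6 CPM at ZT22, where it was 0.34.

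The difference at ZT18 was then set against the mean difference of the other 5 times, which asks whether the genotype effect itself is particular to mid night. Only 3 genes of 17275 (0.0174%) passed this test with edgeR, all with a lower HepKO minus HepWT value at ZT18 than elsewhere. The core clock genes Cry1 (log2 -1.61 ± 0.15, adjusted p = 8.87e-05) and Arntl (-1.20 ± 0.19, adjusted p = 0.0385) were among them. Within HepWT, Cry1 was higher at ZT18 than over its other times by 1.45 and Arntl by 1.28 (log2), both called, while the same comparison within HepKO gave -0.16 and 0.08, neither called. No gene had a difference that was called more positive at ZT18. At an unadjusted p below 0.05 there were 1045 genes, 499 more positive and 546 more negative. DESeq2 called 27 genes, 11 more positive and 16 more negative, with Cry1 and Arntl among them. Without the 5 low HepKO libraries the test called 0. Leaving out single libraries kept Cry1 in each of the 24 fits, while Arntl was lost in 16 of the 24. Fitting the replicate number as a block left 2 genes, with Cry1 kept and Arntl lost.

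Departure from the mean of 5 times did not mean departure from the neighbouring times. Against the mean of ZT14 and ZT22, 0 genes were called by edgeR (0%; 669 at an unadjusted p below 0.05). The difference of Cry1 at ZT18 was below that at ZT14 by 1.18 ± 0.19 (log2, adjusted p = 0.0140) but 0.03 ± 0.19 above that at ZT22 (adjusted p = 1.00). Arntl differed from ZT10 by -4.01 ± 0.27 and from ZT14 by -2.47 ± 0.25, both called, and from ZT2 by 0.56 ± 0.23 and ZT22 by 0.36 ± 0.24, neither called.

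**Figure D1:**
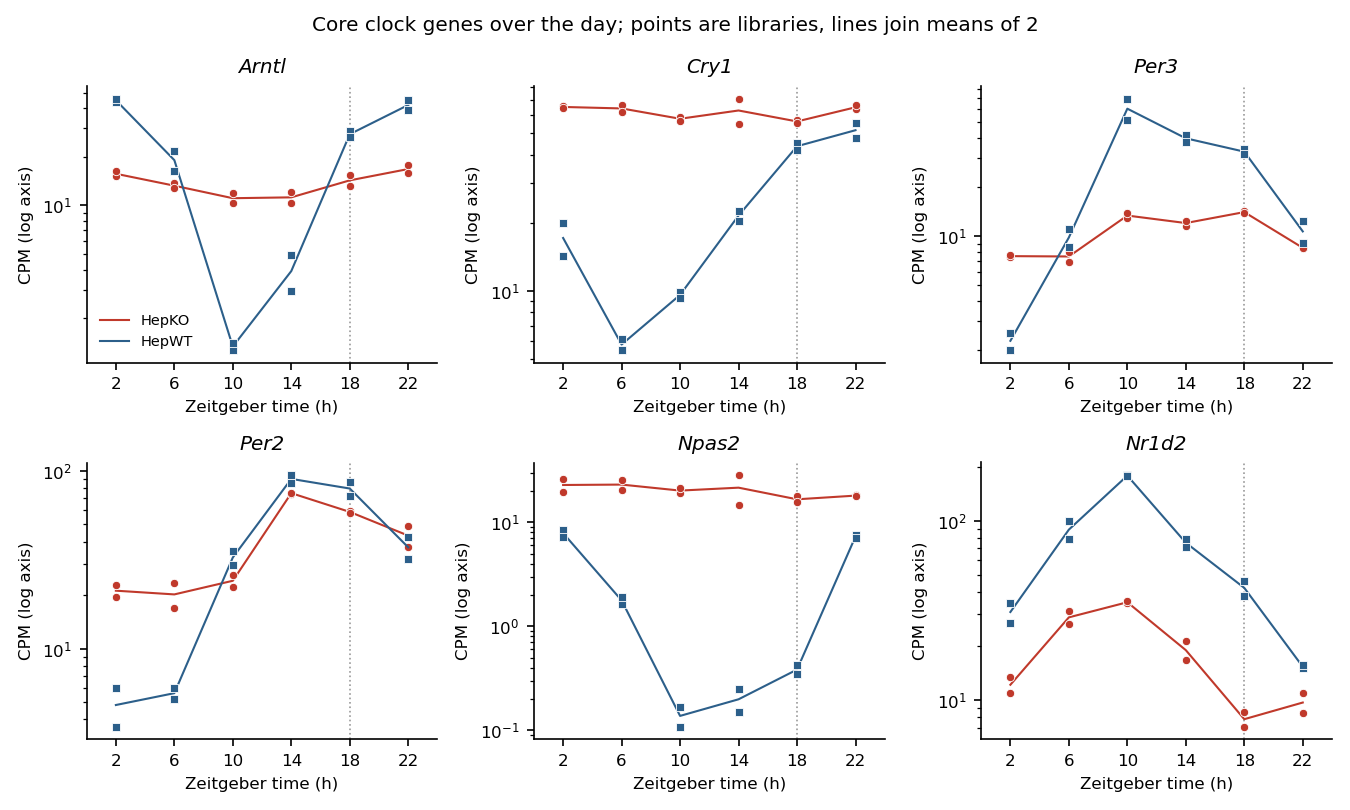
Levels of 6 core clock genes in CPM (log axis) over zeitgeber time in hours, with HepKO libraries as red circles, HepWT libraries as blue squares, lines joining the mean of 2 libraries and ZT18 dotted. At ZT18 the HepWT line of Cry1 (45.2 and 42.1 CPM) lies close below that of HepKO, and the lines of Npas2 and Nr1d2 lie far apart.

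Promoter sequences are shown for 5 clock and output genes described here, chosen because they hold matches to elements of the loop. Each is RefSeq sequence of build GRCm38.p6 on the gene's strand, from 250 bases before the annotated start to 50 after it, and the first listed start was used where RefSeq gives several. Capitals mark matches, on either strand, to the E-box CACGTG, the ROR element core TNGGTCA or the D-box TTANGTAA, the element bound by DBP, TEF, HLF and NFIL3. Positions count from the start site as +1 to the first base of the match. Of all 32851 promoters of this length in the RefSeq table, 7.15% held the E-box, 11.0% the ROR element core and 2.32% the D-box. Arntl (chr7:113207215-113207514, plus strand) holds 2 ROR element cores at -200 and -181. Cry1 (chr10:85185005-85185304, minus strand) holds 1 E-box at -60. Ciart (chr3:95882179-95882478, minus strand) holds 3 E-boxes at -116, -58 and -44. Per3 (chr4:151044616-151044915, minus strand) holds 2 D-boxes at -205 and -158 and a ROR element core at -118. Coq10b (chr1:55052520-55052819, plus strand) holds a D-box at -162 and an E-box at -78. Tef, searched as well but not shown, also holds an E-box. No match was found in the searched promoters of Npas2, Nr1d2, Nr1d1, Dbp, Clock, Nampt, Por, Grk5, Loxl4 and Hmgcs1. The 5 shown are therefore not typical of the genes described here.
Arntl: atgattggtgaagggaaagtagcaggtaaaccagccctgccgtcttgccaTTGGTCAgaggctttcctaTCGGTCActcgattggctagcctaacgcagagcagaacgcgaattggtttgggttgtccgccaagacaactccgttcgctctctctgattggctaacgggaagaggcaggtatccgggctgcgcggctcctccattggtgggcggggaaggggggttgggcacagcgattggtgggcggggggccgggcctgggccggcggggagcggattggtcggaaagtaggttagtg
Cry1: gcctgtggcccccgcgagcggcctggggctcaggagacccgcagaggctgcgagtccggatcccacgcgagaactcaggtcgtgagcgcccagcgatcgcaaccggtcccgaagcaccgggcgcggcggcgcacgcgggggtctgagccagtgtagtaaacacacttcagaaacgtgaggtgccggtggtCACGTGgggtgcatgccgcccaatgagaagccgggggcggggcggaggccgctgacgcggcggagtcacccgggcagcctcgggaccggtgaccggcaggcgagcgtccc
Ciart: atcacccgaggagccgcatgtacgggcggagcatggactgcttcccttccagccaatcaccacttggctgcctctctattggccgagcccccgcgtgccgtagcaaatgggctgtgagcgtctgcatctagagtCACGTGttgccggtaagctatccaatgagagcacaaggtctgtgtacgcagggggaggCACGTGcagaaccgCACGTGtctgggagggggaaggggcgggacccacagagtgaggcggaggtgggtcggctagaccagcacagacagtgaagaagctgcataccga
Per3: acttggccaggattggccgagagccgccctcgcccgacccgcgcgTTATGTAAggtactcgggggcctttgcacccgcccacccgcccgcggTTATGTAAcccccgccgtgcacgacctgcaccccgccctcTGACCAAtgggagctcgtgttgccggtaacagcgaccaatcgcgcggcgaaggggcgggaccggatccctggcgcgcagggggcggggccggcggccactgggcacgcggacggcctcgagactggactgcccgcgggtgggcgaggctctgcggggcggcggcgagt
Coq10b: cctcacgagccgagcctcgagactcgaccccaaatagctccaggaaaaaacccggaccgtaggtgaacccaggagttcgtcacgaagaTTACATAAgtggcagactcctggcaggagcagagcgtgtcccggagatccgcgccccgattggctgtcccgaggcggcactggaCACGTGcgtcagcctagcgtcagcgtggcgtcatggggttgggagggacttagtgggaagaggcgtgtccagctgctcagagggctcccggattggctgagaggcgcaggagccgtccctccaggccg

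Over all tested genes with a promoter in the table (11407), the E-box was found in 11.3%, the ROR element core in 11.7% and the D-box in 2.06%. Here a gene counted if any of its listed starts held the match, so genes with several starts had more chances. These shares of genes are therefore unlike the shares of single promoters given above. Among the 237 genes with a promoter that fell at ZT18 the shares were 15.6%, 15.6% and 6.75%, and among the 273 that rose they were 13.9%, 13.9% and 1.47%. The D-box share of the falling genes rests on 16 genes, which include Per3, Coq10b, Alb, Ugt1a9, Sult1a1 and Eno1. These are matches of letters in a short window and no record of binding.

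The activators of the loop differed most from HepWT in the paralogue of Clock. Npas2 stood at 17.8 and 15.6 CPM in HepKO and at 0.422 and 0.346 CPM in HepWT at ZT18, a log2 difference of 5.43 ± 0.33 (adjusted p = 4.27e-08). HepKO held it between 14.6 and 28.5 CPM at all other times, whereas HepWT ran from 0.109 CPM at ZT10 to 8.52 CPM at ZT2. Its difference at ZT18 was larger than at ZT2 by 3.90 and at ZT22 by 4.13 (log2, both called). Clock itself, at 128 and 122 CPM against 107 and 112 CPM, had a log2 difference of 0.20 ± 0.12 that was not called.

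Of the repressors of the loop, Nr1d2, Per3 and Ciart fell in HepKO at ZT18. Nr1d2 stood at 8.52 and 7.12 CPM in HepKO and at 46.3 and 38.1 CPM in HepWT, 5.35-fold lower in HepKO (log2 -2.42 ± 0.18, adjusted p = 4.36e-07). HepWT Nr1d2 was on its way down from 179 and 177 CPM at ZT10, and HepKO Nr1d2 was lower at ZT18 than over its other times by 1.24 (log2, called). Per3, a period gene, was at 14.2 and 13.8 CPM against 34.2 and 31.7 CPM (log2 -1.23 ± 0.16). Ciart, a repressor of ARNTL and CLOCK, was at 0.646 and 0.923 CPM against 3.22 and 2.87 CPM (log2 -1.99 ± 0.36, adjusted p = 0.00328). Its call was lost without HepKO ZT18 replicate 1, with log2 values of -2.23 to -1.71 over the 33 alternatives. For each of these 3 genes the HepKO and HepWT libraries did not overlap, as in 48.5% of all tested genes at ZT18. Per2, at 59.6 and 58.0 CPM against 72.5 and 86.7 CPM, was not called (log2 -0.44 ± 0.19), although HepKO exceeded HepWT by 2.13 at ZT2 and 1.83 at ZT6. Per1 was at 5.86 and 5.93 CPM in HepKO and at 6.40 and 19.2 CPM in HepWT, so that the HepWT replicates differed more from each other than replicate 1 did from HepKO. Nr1d1 was near its trough in both genotypes, at 1.25 and 0.593 CPM against 1.76 and 0.795 CPM; it lies opposite Thra, and with the strand setting of the counts unknown its reads cannot be told apart from those of Thra, which rose (log2 0.90, adjusted p = 0.00200). Of 15 core clock genes tested, 1 rose and 4 fell at ZT18 (33.3%, against 3.79% of all tested genes, 2.08% higher and 1.7% lower). The median log2 difference was -0.37, beside -0.01 for all tested genes. It lay between -0.45 and -0.11 when 1 ZT18 library was left out.

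Among 16 tested genes known as outputs of the clock, 6 fell and 3 rose, which is 56.25% against 3.79% of all tested genes. The median was -0.58. Gys2, the liver glycogen synthase, was at 93.0 and 91.9 CPM in HepKO and at 307 and 249 CPM in HepWT (log2 -1.59 ± 0.16, adjusted p = 1.32e-05). Por, the reductase that feeds electrons to cytochromes P450, was at 100.0 and 86.7 CPM against 223 and 262 CPM (log2 -1.38 ± 0.21). Nampt, which makes a precursor of NAD, was at 81.5 and 74.6 CPM against 146 and 147 CPM (log2 -0.91 ± 0.11). In each of these genes both HepKO libraries lay below both HepWT libraries. The genotypes did not overlap, in either direction, in 48.5% of all tested genes. The D-box activators Dbp (log2 -1.35 ± 0.23) and Tef (-0.53 ± 0.12) fell as well, and Coq10b fell by 0.54. Elovl3, a fatty acid elongase, rose from 188 and 133 CPM in HepWT to 905 and 945 CPM in HepKO (log2 2.53 ± 0.40). The vasopressin receptor gene Avpr1a (0.71 ± 0.17) and the cell cycle inhibitor gene Cdkn1a (1.48 ± 0.39) rose. The calls of Avpr1a and Coq10b were lost without any 1 of the 4 ZT18 libraries, and that of Tef without 3 of them. Cdkn1a was lost in 14 of 33 alternatives. The list held 1 rise and 4 falls without HepKO replicate 1, HepKO replicate 2 or HepWT replicate 1 of ZT18, while its median stayed between -0.69 and -0.58.

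Across all genes, 654 were called between the genotypes at ZT18 (3.79%), 360 higher (2.08%) and 294 lower (1.7%) in HepKO. A change of at least 2-fold was fitted for 178 of the higher and 124 of the lower. The other times gave 321 calls at ZT2 (1.86%), 857 at ZT6 (4.96%), 1332 at ZT10 (7.71%), 1320 at ZT14 (7.64%) and 233 at ZT22 (1.35%), so mid night lay between the wide difference of the evening and the narrow one before dawn. The count at ZT18 is sensitive to single libraries: it was 244 without HepKO replicate 1, 284 without HepKO replicate 2, 393 without HepWT replicate 1 and 278 without HepWT replicate 2 of ZT18, and 187 without the 5 low HepKO libraries. Leaving out a ZT18 library leaves 1 in its group, assumed to vary like the others. Of 71 genes named by rule and called at ZT18, 35 kept their call without each of these 4 libraries in turn, among them Nr1d2, Per3, Gys2, Grk5, Loxl4, Hmgcs1, Gstm2 and Alb. For 9 genes, Akr1d1, Atf5, Avpr1a, Coq10b, Foxo3, Hsd3b5, Ppara, Saa4 and Tk1, each of the 4 was needed for the call. It was lost for 19 genes without 3 of the 4, for 4 without 2 and for 4 without 1, and 0 of the 71 changed sign.

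Most genes called at ZT18 differed in the same direction at other times. Of the 654, 512 (78.3%) had the same sign at all 5 other times, beside 23.4% of all tested genes. Calls in the same direction were shared with ZT14 for 463 genes (70.8% of the ZT18 calls and 35.1% of the ZT14 calls) and with ZT10 for 425 (65.0% and 31.9%). With ZT22 they were shared for 195, which is 29.8% of the ZT18 calls and 83.7% of the ZT22 calls. At all 5 other times 87 genes were called in the same direction, and their median size of difference at ZT18 was 1.76 (log2). At no other time were 103 called, 44 higher and 59 lower, with a median size of 0.67. These 103 are no list of genes particular to mid night: 46 had the same sign at all other times, and 0 passed the test of ZT18 against the other times by edgeR (71 at an unadjusted p below 0.05). Those of smallest p among them, chosen after their values were seen, were Gas6, Prr16 and Usp45. Gas6, a ligand of the TAM receptor kinases, was at 20.3 and 20.2 CPM in HepKO and at 52.6 and 42.6 CPM in HepWT (log2 -1.23 ± 0.15, adjusted p = 0.000103), with values of -0.48 to -0.31 at the other times.

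**Figure D2:**
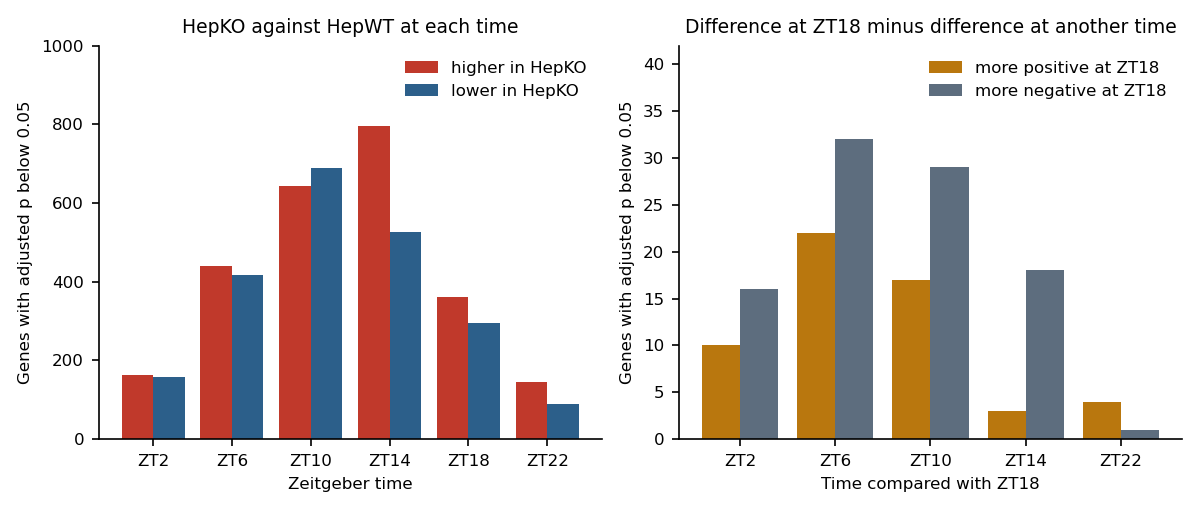
Left, number of genes with an adjusted p below 0.05 for HepKO against HepWT at each zeitgeber time, higher in red and lower in blue. Right, number of genes whose genotype difference at ZT18 differs from that at each other time, more positive at ZT18 in ochre and more negative in grey. At ZT18, 360 genes were higher and 294 lower, and the difference at ZT18 departed from that at ZT22 in 5 genes and from that at ZT6 in 54.

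A few genes differed in direction between times of day. Called at ZT18 and called with the opposite sign at another time were 10 genes, of which Arntl, Dbp, Per3, Tef and Coq10b belong to the clock lists. Dbp was at 2.99 and 3.10 CPM in HepKO and 9.04 and 6.47 CPM in HepWT at ZT18, but had a log2 difference of 1.74 at ZT2. Its difference at ZT18 was below that at ZT2 by 3.09 (adjusted p = 0.000269). Per3 differed from ZT2 by -2.96 and Tef by -2.01, both called. The other five were Crot, Maco1, Plcb1, Stim2 and Vps13a. Crot, the peroxisomal carnitine octanoyltransferase, was higher in HepKO at ZT18, at 567 and 586 CPM against 361 and 341 CPM (log2 0.71, adjusted p = 0.00248). At ZT2 and ZT6 it was lower by 0.55 and 0.51, and both differences from ZT18 were called. Plcb1, a phospholipase C, was lower at ZT18 by 0.49 and higher at ZT2 and ZT6 by 0.45 and 0.54.

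Set against single times, the ZT18 difference was called different for 26 genes at ZT2 (0.151%), 54 at ZT6 (0.313%), 46 at ZT10 (0.266%), 21 at ZT14 (0.122%) and 5 at ZT22 (0.0289%). The 5 against ZT22 were Npas2, Loxl4, Nr1d2, Clpx and Ppard. Loxl4, a lysyl oxidase-like enzyme that cross-links collagen, was at 77.7 and 93.1 CPM in HepKO and at 3.10 and 3.77 CPM in HepWT at ZT18. Its log2 difference was 4.63 ± 0.23 (adjusted p = 2.12e-09), larger than at ZT22 by 2.12 ± 0.29 (adjusted p = 0.00706) and than at ZT2 by 2.80. Both HepKO libraries of ZT18 lay above all HepKO libraries of other times (29.9 to 73.7 CPM), and the HepKO level at ZT18 was called higher than over the other times by 0.78. Nr1d2 was further below HepWT at ZT18 than at ZT22 by 1.74 ± 0.25 (adjusted p = 0.00940). Clpx, a subunit of a mitochondrial protease, stood at 346 and 386 CPM in HepKO and at 150.2 and 147 CPM in HepWT at ZT18 (log2 1.30), and ZT22 fell short of it by 1.07 ± 0.14 (adjusted p = 0.00706). Ppard, the nuclear receptor PPAR delta, stood at 22.7 and 25.4 CPM against 5.67 and 7.89 CPM (log2 1.82), and its difference at ZT18 exceeded that at ZT22 by 1.72 ± 0.26 (adjusted p = 0.0179). In all 5 genes the HepWT level moved between the times. At ZT22 HepWT held 354 and 282 CPM of Clpx, 7.60 and 7.02 CPM of Npas2 and 12.4 and 11.4 CPM of Loxl4. HepKO held 62.3 and 73.7 CPM of Loxl4 at ZT22, so in fold terms its HepWT level moved further than its HepKO level. Both HepWT libraries of Nr1d2 were lower at ZT22 than at ZT18, and those of Ppard were higher.

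**Figure D3:**
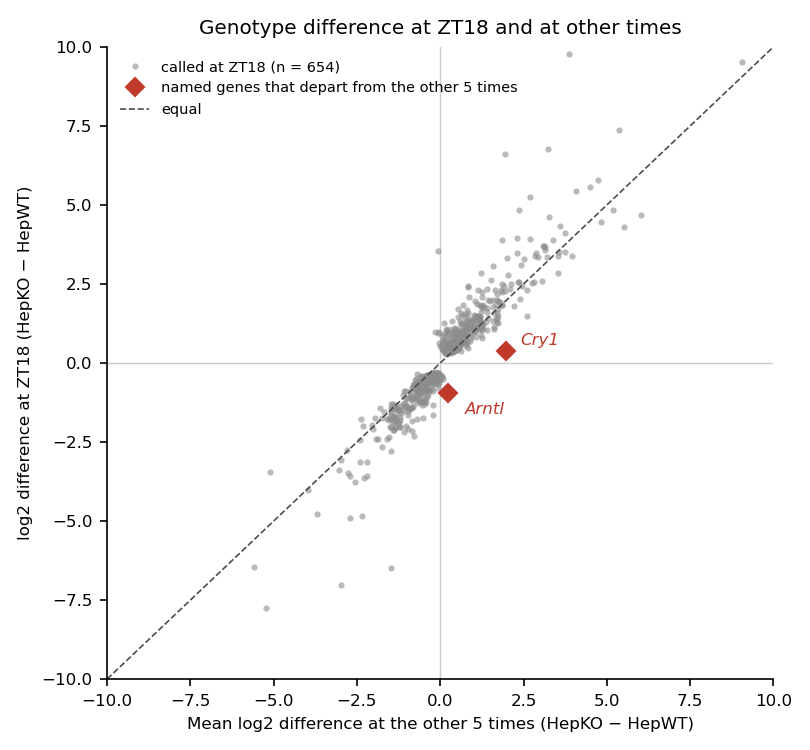
Fitted log2 difference (HepKO minus HepWT) at ZT18 on the y axis against the mean of the differences at the other 5 times on the x axis, for the 654 genes called at ZT18 (grey points) and for Cry1 and Arntl, whose ZT18 difference departed from the other times (red diamonds). Most grey points lie near the dashed line of equal values, and Cry1 and Arntl lie below it by 1.61 and 1.20.

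Among called genes of at least 2 CPM on average at ZT18 whose libraries did not overlap, the largest rises at ZT18 spanned 10.4-fold to 739-fold for 12 genes. All 12 had the same sign at every other time, and 9 were called at all 6 times. Moxd1, a monooxygenase related to dopamine beta-hydroxylase, was at 30.4 and 167 CPM in HepKO and at 0.230 and 0.0346 CPM in HepWT, where 7 counts were seen in all. Its log2 difference of 9.53 ± 1.58 thus rests on HepKO replicates that differ severalfold from each other, and limma-voom did not call it (adjusted p = 0.467). Grk5, which phosphorylates G-protein-coupled receptors, had the smallest p of all genes at ZT18. It was at 108 and 105 CPM in HepKO and at 7.28 and 9.34 CPM in HepWT (log2 3.68 ± 0.14, adjusted p = 4.70e-11). Lpl, lipoprotein lipase, rose from 19.4 and 35.2 CPM to 337 and 368 CPM (log2 3.69 ± 0.48). Cyp2c55, a cytochrome P450, rose from 8.93 and 14.7 CPM to 138 and 134 CPM (log2 3.53 ± 0.34), and its difference at other times was 3.09 to 4.51. Defb1, a defensin, rose from 0.268 and 0.242 CPM to 7.96 and 6.79 CPM (log2 4.83 ± 0.63), with 1.23 to 3.64 at the other times (not called as different, adjusted p = 0.557). The rest were Npas2, Loxl4, Ntrk2 (a neurotrophin receptor, log2 4.29 ± 0.73, not called by limma-voom), Nfe2 (3.94), Chrm3 (a muscarinic receptor, 3.38, call lost without HepWT replicate 2 or either HepKO library), Nckap5 (3.38) and Hectd2os (3.71). Hectd2os is an antisense transcript, whose reads cannot be told apart from those of the overlapping gene without the strand setting.

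The largest falls spanned 5.05-fold to 16.2-fold for 12 genes, 11 of which had the same sign at every other time and 5 of which were called at all 6 times. Acot3, a peroxisomal acyl-CoA thioesterase, was at 0.606 and 0.725 CPM in HepKO and at 15 and 6.36 CPM in HepWT (log2 -4.01 ± 0.75), and its call was lost without either HepKO library of ZT18. Col27a1, a fibrillar collagen, was at 6.95 and 9.10 CPM against 131 and 83.0 CPM (log2 -3.75 ± 0.39). Pnpla3, a lipid droplet protein, was at 0.687 and 0.330 CPM against 7.17 and 5.71 CPM (log2 -3.58 ± 0.66), and its call was lost without HepKO ZT18 replicate 2. Mme, the peptidase neprilysin, was at 4.00 and 5.93 CPM against 60.1 and 41.4 CPM (log2 -3.38 ± 0.45). In all 4 genes both HepKO libraries lay below both HepWT libraries, by the rule that chose them. Cyp2a5, a cytochrome P450 that hydroxylates coumarin, was at 140 and 169 CPM against 1317 and 822 CPM (log2 -2.79 ± 0.35). At ZT2 and ZT6 its difference was -0.14 and -0.42, and ZT18 departed from both (adjusted p = 0.0336 and 0.0442). The others were Slc16a5 (-3.05, call lost without HepWT replicate 2 or either HepKO library), Ugt1a9 (-2.75), Nat8f6 (-2.43), Nr1d2, Gpat3 (-2.41), Ppp1r1b (-2.39) and Ces1d (-2.34). Ugt1a9, Nat8f6 and Ces1d belong to families of near-identical or overlapping genes, so counts may be split among relatives. Nat8f6 had a difference of 0.21 at ZT6, which was not called, and lost its call without HepKO replicate 2 or either HepWT replicate of ZT18.

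**Figure D4:**
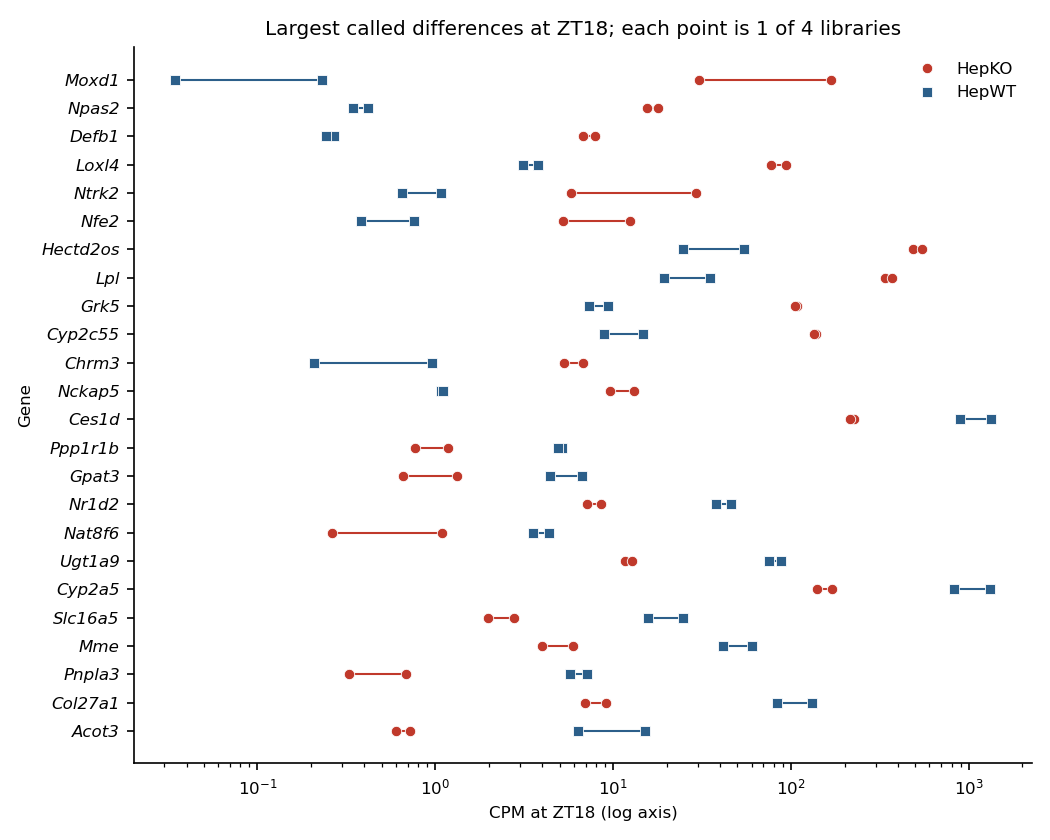
Level at ZT18 in CPM (log axis) of the 12 largest called rises and 12 largest called falls, with HepKO libraries as red circles and HepWT libraries as blue squares joined by a line per genotype. The genotypes do not overlap in any of these genes, by the rule that chose them; the HepKO libraries of Moxd1 lie at 30.4 and 167 CPM, while those of Grk5 lie at 108 and 105 CPM.

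Of the lists examined, cholesterol synthesis and uptake held the most rising genes. Of 26 tested genes of synthesis and uptake, 14 rose and 0 fell, which is 53.8% against 3.79% of all tested genes. The median log2 difference was 1.11. Hmgcs1, the HMG-CoA synthase of the first committed steps, was at 2144 and 1202 CPM in HepKO and at 290.0 and 249.8 CPM in HepWT (log2 2.63 ± 0.35, adjusted p = 0.000220). Msmo1, a sterol oxidase, was at 739 and 439 CPM against 168 and 136 CPM (log2 1.96 ± 0.26). Fdps, the farnesyl diphosphate synthase, was at 55.7 and 41.0 CPM against 17.8 and 15.7 CPM (log2 1.53 ± 0.18). Both HepKO libraries lay above both HepWT libraries in all 3, with HepKO replicate 1 above replicate 2. Such a lack of overlap, in either direction, was seen in 48.5% of all tested genes. Over the list, HepKO replicate 2 lay below replicate 1 by a median of 0.53 (log2). Idi1 rose by 1.85, Mvk by 1.56, Lss by 1.49, Fdft1 by 1.45 and Sqle by 1.22. Insig2, which holds back the SREBP activators of these genes, rose by 1.11. The activator gene Srebf2 was not called. At the other 5 times the median of the list was 0.72, and 0 of its genes passed the test of ZT18 against the other times by edgeR (8 at an unadjusted p below 0.05). The count was 8 without HepKO ZT18 replicate 1, 14 without HepKO replicate 2, 10 without HepWT replicate 1 and 9 without HepWT replicate 2, with medians of 0.85 to 1.29.

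Of the fatty acid and triglyceride synthesis genes that passed, most were lower. Of 24 tested genes, 6 fell and 1, Elovl3, rose (29.2%, against 3.79% of all tested genes). The median of the list was -0.42 at ZT18 and -0.43 over the other 5 times. By edgeR 0 of its genes passed the test of ZT18 against the other times (2 at an unadjusted p below 0.05). Besides Pnpla3, the falling genes were Pklr (pyruvate kinase, log2 -1.33 ± 0.30), Elovl6 (an elongase, -1.13 ± 0.26), Fads2 (a desaturase, -1.01), Mlxipl (the carbohydrate-responsive activator ChREBP, -0.72) and Dgat2 (the last step to triglycerides, -0.65 ± 0.15). Elovl6, for example, was at 196 and 163 CPM in HepKO and at 433 and 351 CPM in HepWT. The main enzymes Fasn, Acly, Acaca and Scd1 and their activator Srebf1 were not called. The falls numbered 1 without HepKO ZT18 replicate 1, 0 without HepKO replicate 2, the library of low total count, 1 without HepWT replicate 1 and 4 without HepWT replicate 2, and Elovl3 rose in each. The direction was kept over the 33 alternatives, with values of -1.28 to -0.97 for Elovl6 and -1.66 to -0.91 for Pklr.

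Of 36 tested genes of fatty acid oxidation and targets of the receptor PPARA, 7 fell and 1 rose. This is 22.2%, against 3.79% of all tested genes. The median of the list was -0.29 at ZT18 and -0.43 over the other 5 times. By edgeR 0 of its genes passed the test of ZT18 against the other times (0 at an unadjusted p below 0.05). Ppara itself was at 80.4 and 80.7 CPM in HepKO and at 143 and 136 CPM in HepWT (log2 -0.79 ± 0.19). Acaa1a, a peroxisomal thiolase, was at 85.0 and 75.8 CPM against 153 and 125 CPM (log2 -0.79 ± 0.11). Cpt1a, the gate of mitochondrial oxidation, fell by 0.50 and Fabp1 by 0.65. The acyl-CoA thioesterase genes Acot3 (-4.01) and Acot4 (-1.32) fell further. Pdk4, the kinase that shuts pyruvate dehydrogenase, rose by 1.94. No rise was called without any 1 of the ZT18 libraries, and the falls numbered 1 without either HepKO library, 2 without HepWT replicate 1 and 5 without HepWT replicate 2.

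Genes of glucose storage and breakdown that passed were all lower. Of 24 genes of glycolysis, gluconeogenesis and glycogen, 5 fell and 0 rose (20.8%, against 3.79% of all tested genes). The median of the list was -0.34 at ZT18 and -0.25 over the other 5 times. By edgeR 0 of its genes passed the test of ZT18 against the other times (4 at an unadjusted p below 0.05). The falling genes were Gys2, Pklr, Gbe1 (the glycogen branching enzyme, log2 -0.62 ± 0.15), Eno1 (enolase, -0.61 ± 0.14) and Gapdh (-0.51). Gys2 was the only fall called without HepKO ZT18 replicate 1, HepKO replicate 2 or HepWT replicate 1, and 6 were called without HepWT replicate 2. Among 18 genes of insulin signalling Foxo3 alone fell (log2 -0.59 ± 0.14). Of 20 genes of bile acid synthesis and transport, the bile salt export pump gene Abcb11 rose (0.65 ± 0.14), and the uptake carrier gene Slco1a1 (-0.59 ± 0.11) and the reductase gene Akr1d1 (-0.56 ± 0.15) fell. The call of Akr1d1 was lost in 18 of 33 alternatives, and the list held 0 calls without HepKO ZT18 replicate 1 and 1 without HepKO replicate 2 or HepWT replicate 1. A single call among 18 genes, as for insulin signalling, is near the 3.79% of all tested genes and says nothing of the list.

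Drug metabolism genes moved in both directions. Of 43 tested, 7 rose and 8 fell (34.9%, against 3.79% of all tested genes), with a median of -0.05. The rises numbered 4 to 6 and the falls 5 to 6 when 1 ZT18 library was left out, with 4 rises without HepKO replicate 1 or HepWT replicate 2 and 5 falls without either HepKO library. The rises were glutathione transferases and CYP2C enzymes: Gstm2, at 241 and 247 CPM against 50.1 and 48.6 CPM (log2 2.30 ± 0.19, adjusted p = 1.28e-06), Gstm3 (2.56), Gstm1 (1.23), Gstm4 (1.04), Cyp2c55, Cyp2c37 (1.30) and Cyp2c29 (1.03). The falls were Cyp2a5, Ces1d, Por, the sulfotransferase gene Sult1a1 (-1.67), the receptor gene Nr1i3 (CAR, -1.11), Gsta3 (-0.87), Cyp3a13 (-0.72) and Ugt1a1 (-0.70). Members of the Gstm and Cyp2c families share sequence, so part of one gene's reads may have been counted for another.

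**Figure D5:**
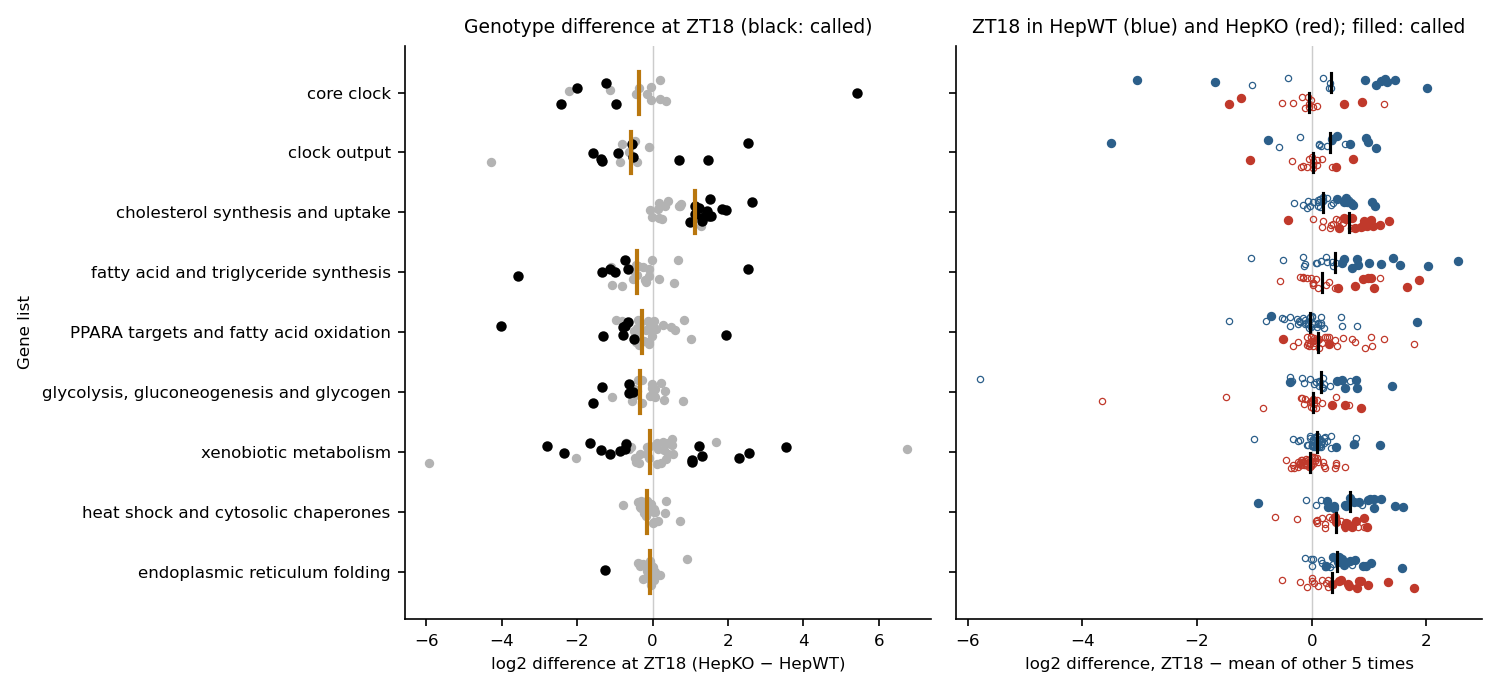
Left, fitted log2 difference at ZT18 (HepKO minus HepWT) of each tested gene of 9 lists, black where called, with the list median in ochre. Right, log2 difference of ZT18 from the mean of the other 5 times within HepWT (blue) and HepKO (red), filled where called, with medians in black. The cholesterol list has a median of 1.11 on the left, and the heat shock list medians of 0.66 and 0.43 on the right.

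Other lists held few calls at ZT18, apart from the female-biased genes with 27.3% called. The share was 12.5% for glucocorticoid-responsive genes and 11.1% for male-biased genes and major urinary proteins. It was 10% for the urea cycle list and 8.7% for acute phase genes. A single call in a list is near the 3.79% of all tested genes, so that nothing is read from it about the list. Of 30 genes of the urea cycle and amino acid breakdown, Cbs (1.11 ± 0.17) and Oat (1.33 ± 0.29) rose and Asl (-0.88 ± 0.19) fell. Of 23 acute phase genes, the interleukin receptor gene Il6ra, at 19.4 and 17.7 CPM against 40.2 and 49.5 CPM (-1.27 ± 0.20), and Saa4 (-1.43 ± 0.39) fell; the call of Saa4 was lost in 17 of 33 alternatives. With a term for replicate 2 in HepWT the acute phase list held 3 rises and 1 fall. That fit takes HepWT at the level of replicate 1. Of 16 glucocorticoid-responsive genes, Fkbp5 fell (-1.49 ± 0.31) and Cdkn1a rose. Over this list HepWT replicate 2 lay above replicate 1 by a median of 0.61. Of 22 genes of heme synthesis and iron, Uros rose (0.53 ± 0.11). Of 20 ATF4 targets, Atf5 rose (0.95 ± 0.24), and of 23 genes of endoplasmic reticulum folding, Herpud1 fell (-1.25 ± 0.29). The calls of Oat, Asl, Fkbp5, Uros and Herpud1 were lost in 4 of 33 alternatives each, and that of Atf5 in 9. For each gene these included fits without 1 ZT18 library. Among 22 female-biased genes 2 rose (Lpl and Ntrk2) and 4 fell (Fmo1, Fmo2, Acot3 and Tox), with a median of -1.14 beside a HepWT replicate 2 that lay above replicate 1 by a median of 0.67; without that library 2 rose and 2 fell, with a median of -0.51. Among 27 male-biased genes and major urinary proteins, Elovl3 and Hsd3b5 (0.88 ± 0.21) rose and Slco1a1 fell. No gene was called among 84 cytosolic ribosomal proteins (median 0.19, 80 of 84 positive), 31 genes of ribosome biogenesis, 44 of oxidative phosphorylation and 23 heat shock genes by edgeR's test; at an unadjusted p below 0.05 these lists held 22, 2, 5 and 0 genes.

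Genes of the cell cycle moved with 1 library. Of 29 tested, Rrm2 and Tk1 fell (6.9%, against 3.79% of all tested genes), and the median was -0.94. HepWT replicate 2 lay above HepWT replicate 1 by a median of 1.18 in the same genes, more than the difference between the genotypes. Ccnd1, for example, was at 34.7 and 31.4 CPM in HepKO and at 37.1 and 100.2 CPM in HepWT. Neither Rrm2 nor Tk1 was called without HepWT replicate 2 or without either HepKO library, and the median of the list was 0.25 without HepWT replicate 2.

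Markers of the cell types of liver were examined for differences in composition; in bulk tissue fewer cells of a type and less RNA per cell cannot be told apart. Of 17 hepatocyte markers, 2 fell and 0 rose (11.8%, against 3.79% of all tested genes). Alb, which encodes albumin, was at 24198 and 24590 CPM in HepKO and at 61828 and 69448 CPM in HepWT (log2 -1.43 ± 0.22, adjusted p = 0.000764), and Cebpa fell by 0.42. The median log2 difference of the hepatocyte list was close to 0. Its summed level was 94126 to 94159 CPM in HepKO against 130954 to 144050 CPM in HepWT. Most of that gap lies in Alb alone, by the CPM given above. Of the 17 markers 8 had a positive difference, so the sum does not show a lower level of the list as a whole. Of 15 tested markers of stellate cells and fibroblasts 0 were called, with a median of -0.44 and summed levels of 434 to 445 CPM in HepKO and 446 to 610.4 CPM in HepWT; Col3a1 was at 27.5 and 31.8 CPM in HepKO and at 43.4 and 148 CPM in HepWT. None was called among 17 markers of Kupffer cells and macrophages (summed 685 to 711 CPM in HepKO, 713 to 821 CPM in HepWT) or 15 of endothelium (559 to 606 CPM, 598 to 616 CPM). Of 7 cholangiocyte markers Sox9 rose, at 11.1 and 11.3 CPM against 5.02 and 3.25 CPM (log2 1.45 ± 0.34), while Krt7 and Epcam were not called; the call of Sox9 was lost without either HepKO library or HepWT replicate 2. Summed cholangiocyte markers were at 136 to 145 CPM in HepKO and 99.9 to 126 CPM in HepWT. Erythroid markers summed to 105 to 127 CPM in HepKO and 163 to 182 CPM in HepWT, with 0 of 7 called. T and NK cell markers summed to 4.68 to 4.77 CPM and 5.74 to 6.55 CPM, B and plasma cell markers to 10.8 to 13.4 CPM and 8.92 to 14.3 CPM, and neutrophil markers, with Ly6g at 0, to 2.70 to 3.43 CPM and 2.30 to 4.05 CPM, with 0 called in these 3 lists. Adipocyte markers summed to 15.3 to 16.1 CPM and 16.9 to 23.2 CPM with 0 called. Adiponectin, leptin and resistin genes were at 0 in all 4 libraries. Of 8 exocrine pancreas markers 7 were at 0 and Cela1, which rose (1.26 ± 0.22), was the only one tested. At an unadjusted p below 0.05 the lists with 0 calls held 4 genes for stellate cells, 2 each for Kupffer, erythroid and T and NK cells, and 0 for endothelium, B cells, neutrophils and adipocytes. The part of any of these cells in the results above was not tested.

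The level at mid night was then compared with the other 5 times within each genotype. In HepWT 1173 genes (6.79%) were called at ZT18, 683 higher (3.95%) and 490 lower (2.84%), and in HepKO 957 (5.54%), 515 higher (2.98%) and 442 lower (2.56%). Called in both genotypes with the same direction were 442 genes, 37.7% of the HepWT and 46.2% of the HepKO calls, and 0 were called with opposite directions. The counts fell to 171 and 70 without HepWT ZT18 replicate 2, and to 38 and 13 without HepKO ZT18 replicate 1.

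Some of the chaperone genes were called higher at mid night than at other times in each genotype. Of 23 heat shock and cytosolic chaperone genes, 16 were higher and 1, the cold-inducible Cirbp, lower at ZT18 in HepWT. In HepKO 8 were higher. Of all tested genes, 3.95% were called higher and 2.84% lower at ZT18 in HepWT, and 2.98% higher in HepKO. Hsp90aa1 was higher by 1.45 in HepWT and 0.91 in HepKO (log2, both called), Hspa8 by 1.21 and 0.96, and Stip1 by 1.01 and 0.70. Hsph1 was higher by 1.59 in HepWT, and its 0.80 in HepKO was not called. Of 23 genes of endoplasmic reticulum folding, 13 were higher in HepWT and 11 in HepKO, among them Creld2 (1.57 and 1.32), Hyou1 (1.03 and 0.99) and Hspa5 (the chaperone BiP, 0.88 and 0.78). Whether these rises differ between genotypes is the test of ZT18 against the other times, which 0 genes of either list passed by edgeR (2 in each at an unadjusted p below 0.05). The calls depend on single libraries. Higher heat shock genes in HepWT numbered 7 without HepWT ZT18 replicate 1 and 11 without replicate 2, and in HepKO 0 without HepKO ZT18 replicate 1 and 4 without replicate 2. Higher folding genes numbered 3 and 1 in HepWT, and 0 and 1 in HepKO, in the same order. The medians moved less, at 0.60 and 0.80 (heat shock, HepWT), 0.46 and 0.45 (heat shock, HepKO), 0.45 and 0.45 (folding, HepWT) and 0.28 and 0.33 (folding, HepKO).

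Some of the lipid synthesis genes were also called higher at mid night in each genotype. Of the 24 lipogenic genes, 11 were higher at ZT18 in HepWT and 8 in HepKO, 0 lower in either. Over all tested genes, 3.95% were called higher and 2.84% lower in HepWT. In HepKO these shares were 2.98% and 2.56%. Thrsp, a lipogenic nuclear protein, was higher by 2.03 and 1.88, Fasn by 1.54 and 1.67, Acly by 1.21 and 1.03 and Gpam by 1.01 and 1.09. Pnpla3 was higher by 2.55 in HepWT, and its 1.18 in HepKO was not called. Of the 26 cholesterol genes, 8 were higher in HepWT and 15 higher and 1 lower in HepKO. Without HepWT ZT18 replicate 1 or 2 the higher genes in HepWT numbered 3 and 10 on the lipogenic list and 1 and 1 on the cholesterol list. Without HepKO ZT18 replicate 1 or 2 those in HepKO numbered 1 and 5, and 1 and 13. Hmgcs1 was higher by 0.96 in HepKO and was not called in HepWT (-0.16), and the difference between these, 1.12, was not called (adjusted p = 0.628).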

How the data were processed

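Liver RNA-seq of 24 libraries was analysed from 1 table of raw read counts per gene that the authors deposited (35304 genes). STAR 2.4.0i and the mm10 build are named in the submitters' processing notes; the sources used here do not give the counting tool, its strand setting or the gene annotation. Libraries were grouped by genotype and zeitgeber time from their labels, 12 groups of 2; the columns of 5 HepKO replicate 2 libraries, ZT18 included, carry a suffix that no label explains. Genes were kept by edgeR's filterByExpr (minimum count 10, minimum total 15; 17275 genes), scaled by TMM, and tested with edgeR 4.0.16 (quasi-likelihood F test, two-sided, 12 residual degrees of freedom, Benjamini-Hochberg adjustment over all tested genes, threshold 0.05) in R 4.3.3. Contrasts were HepKO against HepWT at ZT18, that difference against the mean of the other 5 times, and ZT18 against the other times within each genotype. The test was checked on simulated counts.

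Named genes were the clock lists, the 12 largest rises and 12 largest falls, and up to 4 genes of smallest p per list. The largest rises and falls were taken among called genes of at least 2 CPM whose libraries did not overlap. Other genes named are members of a list, of counts of 5 or fewer, or of the 10 genes called with opposite signs. Gas6, Prr16 and Usp45 had the smallest p among the 103 genes called in the same direction at no other time. Thra is named because it lies opposite Nr1d1. The rule's further class, genes called both at ZT18 and against the other times, held Arntl alone. The comparison, its members and the gene lists were chosen with earlier results of these data known. Alternatives were DESeq2 1.42.0, limma-voom (limma 3.58.1), other size factors, filters and thresholds, a replicate block, a HepWT replicate term, fits without low-count or single libraries, and the 4 ZT18 libraries alone. Tests against single times other than ZT6, and list counts without single libraries, were added after seeing the data. Same-numbered libraries of the 2 genotypes did not deviate together (r between -0.09 and 0.05 over genes at the 6 times), so the numbers were not taken to pair them. Promoters came from RefSeq (GRCm38.p6). Results of some genes are not reported here; they stay in the counts.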

Additional observations from a re-analysis of the deposited data

Results flagged for a closer look

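For the genes below, the difference between the genotypes at ZT18 departed from that at another time by a test of the difference itself, in values given as log2 at ZT18 minus log2 elsewhere. Against the mean of the other 5 times these included Cry1 (-1.61) and Arntl (-1.20). Against ZT6, the time 12 h away, Per1 departed by -3.27, Cry1 by -3.11, Cyp2a5 by -2.37, Usp2 by -2.35, Per2 by -2.27, Wee1 by -1.51, Coq10b by -1.27 and Nampt by -1.16, and Loxl4 by 2.26. In Per1 the HepWT libraries of ZT18 lay at 6.40 and 19.2 CPM, so its value rests on replicates that differ.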

How the results depend on the processing

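Counts of called genes moved with the libraries and filters. At ZT18 the 360 higher and 294 lower genes became 603 and 711 with no filter on low counts, 128 and 59 without the 5 low HepKO libraries (which leaves 1 HepKO library at ZT18, assumed to vary like the other groups), and 176 and 119 at an adjusted p below 0.01. Leaving out 1 library at a time gave 132 to 384 higher and 79 to 337 lower. Against the other 5 times, 0 more positive and 3 more negative became 11 and 16 with DESeq2, 134 and 118 with no filter, 0 more negative without the 5 libraries and 0 against ZT14 and ZT22; 1 library at a time gave 0 to 1 and 1 to 4. Against single times the counts were 10 and 16 (ZT2), 22 and 32 (ZT6), 17 and 29 (ZT10), 3 and 18 (ZT14), and 4 and 1 (ZT22). Within HepWT, 683 higher and 490 lower became 423 and 275 without the 5 libraries and 285 and 160 at the stricter threshold, with 171 to 807 and 70 to 516 when 1 library was left out. Within HepKO, 515 and 442 became 19 and 9, and 181 and 140, with 781 higher with no filter and 38 to 616 and 13 to 563 when 1 library was left out. Apart from the smaller sets of libraries, genes and thresholds, the cause was not tested.

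The replicate numbers did not pair the libraries; with the replicate as a block the counts were 378 higher and 306 lower at ZT18, 0 and 2 against the other times (Arntl was lost), 684 and 480 within HepWT and 526 and 449 within HepKO. Across times, replicate 2 deviated alike in HepWT (r over pairs of times -0.010 to 0.30, median 0.17) but not in HepKO (-0.14 to 0.079, median -0.016). A term for replicate 2 in HepWT takes HepWT at the level of replicate 1. Its ZT18 values thus set HepKO against a replicate 1 level, not against the mean of both HepWT replicates. It gave 429 higher and 395 lower genes at ZT18 and 8 falls in place of 5 on the glucose list. Medians were -0.24 in place of -0.94 for cell cycle genes and -0.54 in place of -1.14 for female-biased genes. These shifts include the change of baseline and are no adjusted estimate of the same difference. Among named genes called at ZT18 the block ended the calls of Akr1d1 and Saa4. Of 71 such genes, 27 were called in all 33 alternatives and 0 reversed; 40 were lost without the 5 low libraries. Values that were not called changed sign for Nr1d1 (-1.08 to 0.30 when 1 library was left out, positive without HepWT ZT18 replicate 1), Nfil3 (-0.26 to 0.11, positive without the same library) and Rora (-0.093 to 0.028, positive without HepKO or HepWT ZT18 replicate 2, and 0.027 without the 5 libraries). Against ZT22 alone Cry1 stood at 0.029 and Arntl at 0.36, and Arntl stood at 0.56 against ZT2. With 2 libraries a group, small differences were not detectable: the smallest called difference at ZT18 was 0.28 (log2).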
